A study of Mus musculus with 12 samples.

Results

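*Meteor* is an enhancer on mouse chromosome 9 that lies upstream of *Eomes* and is itself transcribed. The genes followed here are the 2 annotated transcripts of that locus, *2610509F24Rik* and *Platr11*, together with *Eomes*. They were chosen by name, from the locus and the gene it neighbours, and all 3 were found by their Ensembl identifiers among the 46517 genes listed and passed the filter that left 15673 genes for testing.

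RNA was sequenced from a mouse embryonic stem cell (ESC) line of C57BL/6 background that carries an EGFP cassette at the start of *Eomes*. WT cells and cells with the *Meteor* enhancer deleted (*Meteor* KO) were compared as undifferentiated ESCs on mouse embryonic fibroblast feeders (day 0) and after 3 days in hanging drops, in which the cells form embryoid bodies and enter cardiac differentiation. Each of the 4 groups held 3 samples. The reporter cassette is in all 12 samples, so no group has an untouched *Eomes* locus, and KO lines were raised from picked clones, without a statement of how many clones stand behind the 3 KO samples.

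*Eomes* encodes a T-box transcription factor that is needed for mesendoderm, the precursor of mesoderm and definitive endoderm, and it responds to Nodal and Wnt signals. Active enhancers are often transcribed, either into short unstable RNAs or, as here, into longer RNAs that can be spliced and polyadenylated. *Platr11* belongs to the pluripotency associated transcripts (*Platr* genes), noncoding RNAs named for their presence in ESCs.

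The locus transcripts lie close together on the minus strand of GRCm38, pointing away from *Eomes*, which is on the plus strand. *Platr11* (ENSMUSG00000098161, a lincRNA) spans 9:118404097-118406099 and *2610509F24Rik* (ENSMUSG00000103968, a biotype still to be tested by experiment) spans 9:118402465-118403302, with 794 bp between them. Their start sites as annotated in Ensembl are 72.1 kb and 74.9 kb from that of *Eomes* (ENSMUSG00000032446, 9:118478212-118486132). RefSeq draws *Platr11* as 1 gene of 45161 bp that covers both, with its edge on the *Eomes* side 31.0 kb from the *Eomes* start. The 2 Ensembl genes may thus be parts of 1 longer transcription unit. The counts cannot say whether a read came from 1 RNA or from 2.

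The spliced *Platr11* transcript of GENCODE release M21 is 388 bases long and has 4 exons of 59, 97, 165 and 67 bases. Its 2 longest exons are shown, since most of the counted length lies in them, with exon 2 (9:118404730-118404826) in capitals and exon 3 (9:118404304-118404468) in lower case.
Platr11 exons 2 and 3: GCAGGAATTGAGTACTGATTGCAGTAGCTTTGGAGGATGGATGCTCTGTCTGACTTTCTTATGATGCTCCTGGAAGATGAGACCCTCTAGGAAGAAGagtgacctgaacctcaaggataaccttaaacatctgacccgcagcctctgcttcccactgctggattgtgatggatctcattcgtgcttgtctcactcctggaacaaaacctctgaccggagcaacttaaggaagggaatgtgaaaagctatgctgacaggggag
*2610509F24Rik* is a transcript of 838 bases in 1 exon. Its last 120 bases (9:118402465-118402584, minus strand) are shown because the libraries were made from polyadenylated RNA, with the polyadenylation signal AATAAA in capitals.
2610509F24Rik 3′ end: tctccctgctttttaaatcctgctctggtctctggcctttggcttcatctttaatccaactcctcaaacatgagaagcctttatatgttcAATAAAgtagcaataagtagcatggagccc
The signal ends 24 bases before the annotated 3′ end. AATAAA was found in the last 50 bases of 28.2% of the 12395 lincRNA and still-to-be-tested transcripts and of 26.6% of all 141672 transcripts in that release, and it occurs nowhere in the 388 bases of *Platr11*. No word of 100 bases of any of the 3 genes was shared with a transcript of another gene.

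The 250 bases before the *Eomes* start in RefSeq (GRCm38.p6, 9:118477939-118478188, plus strand) are given as the promoter whose output changed between the groups, with 3 matches in capitals.
Eomes promoter: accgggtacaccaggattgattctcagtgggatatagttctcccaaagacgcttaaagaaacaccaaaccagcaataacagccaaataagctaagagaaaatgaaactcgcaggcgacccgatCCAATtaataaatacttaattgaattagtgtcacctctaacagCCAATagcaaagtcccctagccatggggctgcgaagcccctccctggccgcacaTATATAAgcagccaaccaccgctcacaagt
These matches are a TATA box (TATATAA) whose first base is at -30 from the start, and CCAAT boxes (CCAAT) at -127 and -84, all on the plus strand. Over the 32851 RefSeq promoters, 3.04% of the same 250-base windows held TATATAA on either strand and 33.9% held CCAAT. The letters ATGCAAAT (octamer, bound by Oct4), CATTGTT (Sox), AATCCACA (FoxH1), ATCAAAG (TCF/LEF) and AGGTGTGA (T-box) were searched for on both strands and are not in this window, while 1.60%, 3.29%, 0.718%, 3.20% and 1.12% of promoters held them.

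Between 17455927 and 23910943 reads were counted on genes per sample. At that depth 3 reads in a library correspond to 0.125 to 0.171 CPM (reads of a gene relative to the sequencing depth of its library, scaled by TMM factors), the level that a count of 0 still allows, for counting error only. Among markers of the labelled cells, *Pou5f1*, which encodes Oct4, was at 680 to 866 CPM in WT ESCs and 925 to 1028 CPM in KO ESCs. Of 11 pluripotency markers with *Pou5f1* among them, 3 were called higher in KO than in WT ESCs (*Esrrb*, *Tfcp2l1* and *Nr0b1*). The 1 called lower was *Dppa3* (13.9 to 28.0 CPM in WT and 1.27 to 2.80 CPM in KO ESCs). Of all tested genes 9.56% were higher and 10.9% lower in that comparison. Summed CPM of 9 fibroblast (feeder) markers ranged from 105 to 363 in WT and from 152 to 447 in KO cells at day 0, and from 57.2 to 124 and 45.3 to 92.2 at day 3. *Upf3b*, a nonsense-mediated decay factor on another chromosome, was at 45.5 to 55.9 CPM in the 6 WT samples and at most 0.66 CPM in the 6 KO samples, so deletion of *Meteor* and loss of *Upf3b* RNA cannot be told apart in any KO comparison.

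*2610509F24Rik* had 5.84, 3.03 and 2.75 CPM in the 3 WT samples at day 0, from 107, 58 and 52 reads. At day 3 the WT samples had 1.35, 4.43 and 3.52 CPM, from 29, 92 and 74 reads. No read was counted in any of the 6 KO samples. The 6 WT samples were thus all above the KO samples at both days. The KO level was at least 71.3-fold lower at day 0 and at least 63.4-fold lower at day 3 than the pooled WT level, with 3 reads over the group as the limit for the KO samples. Both differences passed the edgeR quasi-likelihood test across all genes (adjusted p = 0.0050 at day 0 and 0.0038 at day 3).

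*Platr11* had 6.12, 1.57 and 3.33 CPM in WT cells at day 0 and 0.51, 2.55 and 1.52 CPM at day 3, from 11 to 112 reads per sample. In KO cells 1 read was counted in each of 2 samples at day 0, and none in the other day 0 sample or at day 3. The WT to KO ratio was 101 at day 0 (95% interval 27.6 to 839.5 from the exact binomial, counting error only) and the KO level was at least 31.2-fold lower at day 3. Both differences passed the edgeR test (adjusted p = 0.0055 and 0.0068). Of all 15673 tested genes, 20.4% differed between KO and WT at day 0 and 30.9% at day 3, with 10.9% and 16.7% lower in KO cells. The loss of reads over both genes is the check of the deletion in these libraries, and a direct test of the deleted bases is not possible from counts.

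**Figure D1:**
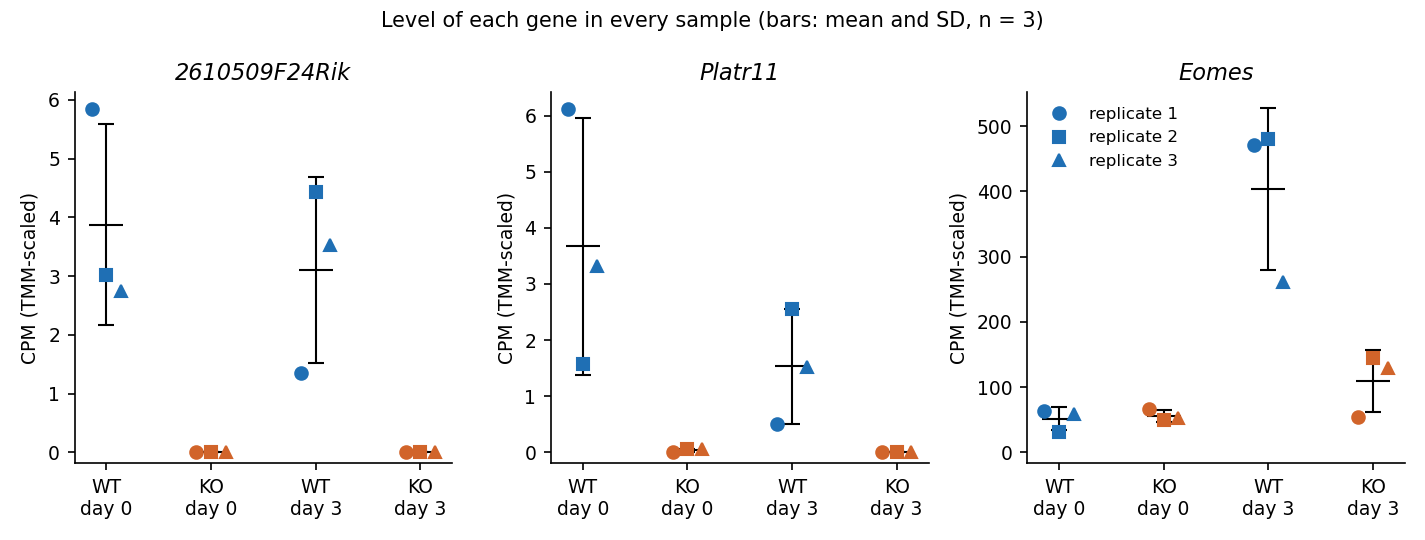
CPM (TMM-scaled, linear axes that differ between panels) of *2610509F24Rik*, *Platr11* and *Eomes* in each of the 12 samples, with symbols for the replicate number and bars for the mean and SD of 3 samples. Both locus transcripts lie at or near 0 in all KO samples, and *Eomes* at day 3 lies at 261 to 480 CPM in WT and at 54.7 to 144 CPM in KO samples.

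In WT cells the locus was transcribed at a low level at both days, and a change over time passed the test for neither transcript. *2610509F24Rik* was at 3.87 ± 1.71 CPM (SD, n = 3) at day 0 and 3.10 ± 1.58 CPM at day 3, a log2 change of -0.34 (95% interval -1.74 to 1.05, edgeR adjusted p = 0.64). The ranges of the 2 days overlapped. *Platr11* was at 3.67 ± 2.29 and 1.53 ± 1.02 CPM, a log2 change of -1.26 (interval -2.90 to 0.38, adjusted p = 0.16), again with overlapping ranges. Of all tested genes 56.2% changed in this comparison. *Platr11* passed it when WT replicate 2 was left out, with -2.25 (adjusted p = 0.023) without that sample at day 0 and -2.20 (adjusted p = 0.026) without that at day 3. For *2610509F24Rik* the sign turned when WT replicate 1 was left out, to 0.44 without the day 0 sample and 0.45 without the day 3 sample.

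The same WT samples stood at the ends of both ranges. Replicate 1 had the highest level of both locus transcripts at day 0 and the lowest at day 3. Over both genes the locus had 11.96, 4.59 and 6.08 CPM at day 0 and 1.87, 6.98 and 5.05 CPM at day 3. The summed feeder markers of the WT samples at day 0 were 105, 363 and 208 CPM, the reverse order of the locus levels. At day 3 they were 57.2, 59.3 and 124 CPM, which is not the reverse order of the locus levels of that day. The part of feeder RNA in the locus values was not tested.

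The split of reads between the 2 transcripts varied between samples. *Platr11* took 51.1%, 34.1% and 54.8% of the locus reads in the WT samples at day 0 (exact binomial intervals 44.3 to 57.9, 24.3 to 44.97 and 45.2 to 64.1). At day 3 its share was 27.5%, 36.6% and 30.2% (14.6 to 43.9, 28.7 to 44.95 and 21.7 to 39.9). WT replicate 2 had the lowest share at day 0 and the highest at day 3, and through that sample the 2 ranges overlapped. Per kilobase of exon, *Platr11* was at 9.46 ± 5.91 CPM per kb and *2610509F24Rik* at 4.62 ± 2.04 CPM per kb at day 0. At day 3 they were at 3.94 ± 2.63 and 3.70 ± 1.89 CPM per kb, a gap smaller than the spread between samples.

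**Figure D2:**
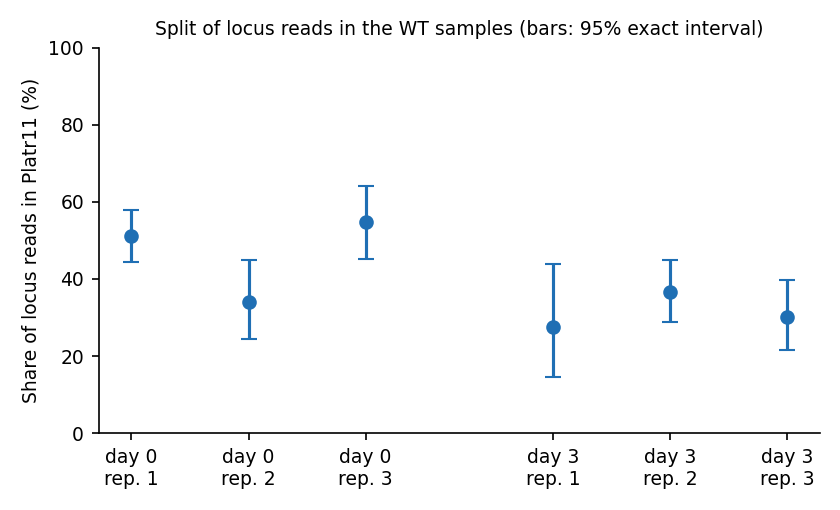
Share of the reads of both locus transcripts that fell in *Platr11* (vertical axis, percent) in each WT sample, with exact 95% binomial intervals. The share runs from 34.1% to 54.8% at day 0 and from 27.5% to 36.6% at day 3, on 40 to 219 reads per sample.

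*Eomes* RNA was already present in WT ESCs, at 63.8, 31.2 and 59.1 CPM, and was at 471, 480 and 261 CPM at day 3. The rise was 7.83-fold (log2 2.97, SE 0.42, edgeR adjusted p = 2.4e-04), with no overlap between the days. Per kilobase *Eomes* went from 12.4 ± 4.24 to 97.2 ± 29.8 CPM per kb. In WT ESCs the order per kilobase was *Eomes*, *Platr11* and *2610509F24Rik*, with neighbours in that order closer to each other than the SD of *Platr11*, whereas at day 3 *Eomes* was far above both. The number of *Eomes* reads per locus read was 5.33, 6.78 and 9.72 at day 0 and 252, 68.7 and 51.7 at day 3. The highest value at day 3 was that of replicate 1, which had the fewest locus reads and 471 CPM of *Eomes*.

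In undifferentiated cells the KO samples, with 2 locus reads in all, had 66.1, 49.3 and 52.0 CPM of *Eomes*. These values lay among or just above the WT values, and the log2 difference of KO to WT was 0.12 (SE 0.39, adjusted p = 0.87) with a 95% interval of -0.75 to 0.99. The sign turned when WT replicate 2 of day 0 was left out (-0.22) and when KO replicate 1 of day 0 was left out (-0.05). Changes inside that interval, in either direction, remain compatible with these 3 samples a group, and the smallest detectable change was not worked out.

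At day 3 the KO samples had 54.7, 144 and 129 CPM of *Eomes*, all below the lowest WT sample at 261 CPM. The KO level was 3.66-fold lower (log2 -1.87, SE 0.40, 95% interval -2.76 to -0.99, adjusted p = 0.0065). Under the other settings and with each sample left out the adjusted p stayed between 1.9e-04 and 0.029. Within KO cells *Eomes* was 1.97-fold higher at day 3 than at day 0 (log2 0.98, SE 0.39), in a comparison that called 56.6% of tested genes, and missed the threshold (adjusted p = 0.057, with a range of 0.0030 to 0.24 over the alternatives). At day 3 KO replicate 1 (54.7 CPM) lay within the range of the KO samples of day 0 (49.3 to 66.1 CPM), whereas replicates 2 and 3 lay above it. Without KO replicate 1 of day 3 the log2 change was 1.44 and passed (adjusted p = 0.0030). In bulk samples fewer *Eomes*-expressing cells and less *Eomes* RNA per cell cannot be told apart.

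The KO effect on *Eomes* differed between the days, by -1.99 on the log2 scale (SE 0.56, adjusted p = 0.037), in a comparison that called 15.5% of tested genes. This call was the least stable of those on *Eomes*. It was lost, with adjusted p between 0.056 and 0.078, in 8 of 12 fits that left out 1 sample: each KO sample of day 0, WT replicates 2 and 3 of day 0, WT replicates 1 and 2 of day 3, and KO replicate 3 of day 3. The value itself stayed between -2.37 and -1.54.

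The genes around the locus give the regional background. Within 500 kb of the *2610509F24Rik* start, 10 other Ensembl genes are listed and 4 of them were tested. *Azi2* (362.8 kb away on the far side from *Eomes*) and *Cmc1* (253.1 kb, same side) passed the test in neither KO comparison, with log2 differences of 0.25 and 0.20 at day 0 and -0.12 and -0.14 at day 3. *Golga4*, which encodes a Golgi golgin and starts at 103 kb on the *Eomes* side, was at 160 to 167 CPM in WT and 193 to 222 CPM in KO ESCs (log2 0.31, SE 0.08, adjusted p = 0.023) and differed by -0.09 at day 3 (adjusted p = 0.44).

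*Itga9*, an integrin subunit gene at 203.4 kb on the *Eomes* side, changed in opposite directions at the 2 days. It had 16.3, 24.5 and 21.8 CPM in WT and 28.0, 42.9 and 50.5 CPM in KO ESCs, with no overlap (log2 0.93, SE 0.28, adjusted p = 0.043). At day 3 it had 10.8, 10.2 and 27.7 CPM in WT and 5.35, 6.14 and 4.995 CPM in KO cells, again with no overlap (log2 -1.46, SE 0.30, adjusted p = 0.0057). *Itga9* and *Golga4* were the 2 tested neighbours called higher at day 0, where 9.56% of all tested genes were. That count fell to 0 without WT replicate 3 or any 1 of the KO samples of day 0, and to 1 without WT replicate 1 or 2 of day 0 or KO replicate 2 of day 3.

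**Figure D3:**
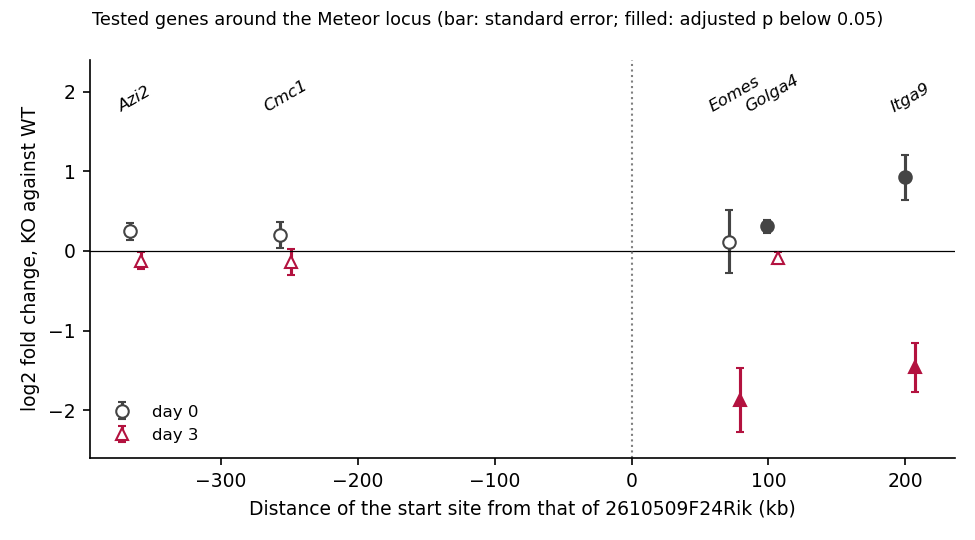
Log2 fold change of KO against WT (vertical axis, bars for the standard error) for *Eomes* and the 4 tested neighbours against the distance of their start sites from that of *2610509F24Rik* (kb), with day 0 as circles and day 3 as triangles, set slightly apart. Filled symbols passed an adjusted p of 0.05, which at day 3 holds for *Eomes* (-1.87) and *Itga9* (-1.46).

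Most other *Platr* genes fell during WT differentiation. Of 29 other *Platr* genes listed, 18 were tested, and 15 of these fell from day 0 to day 3 in WT cells while none rose. The median log2 change was -2.52, against 0.07 over all tested genes, of which 25.5% fell. *Platr10*, the most abundant of them in CPM, went from 101 to 145 CPM to 26.0 to 42.6 CPM (log2 -1.89, SE 0.19). The 3 that did not pass were *Platr20* (-0.72), *Platr22* (-0.29) and *Platr25* (-0.35). With -1.26 for *Platr11* and -0.34 for *2610509F24Rik*, the locus transcripts lay within the range of the family but changed less than its median. Their standard errors (0.71 and 0.57) were above those of most members.

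In KO cells at day 3 the *Platr* genes were on balance higher than in WT, in the comparison in which *Platr11* had no reads. Of the 18 tested, 11 were higher and none lower, beside 14.3% of all tested genes higher, with a median log2 difference of 1.12. *Platr10* was at 98.3 to 125 CPM in KO and 26.0 to 42.6 CPM in WT samples (log2 1.72, SE 0.19, adjusted p = 2.4e-04), and *Platr14* at 34.8 to 42.5 and 14.7 to 25.4 CPM (log2 1.02, SE 0.14). The count of 11 dropped to 6 when WT replicate 2 or KO replicate 3 of day 3 was left out, and to 7 when KO replicate 1 of that day was. At day 0, 3 of 18 were higher in KO cells (*Platr21*, *Platr26* and *Platr28*) and none lower, beside 9.56% of tested genes higher, and that count ranged from 0 to 4 when 1 sample was left out.

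**Figure D4:**
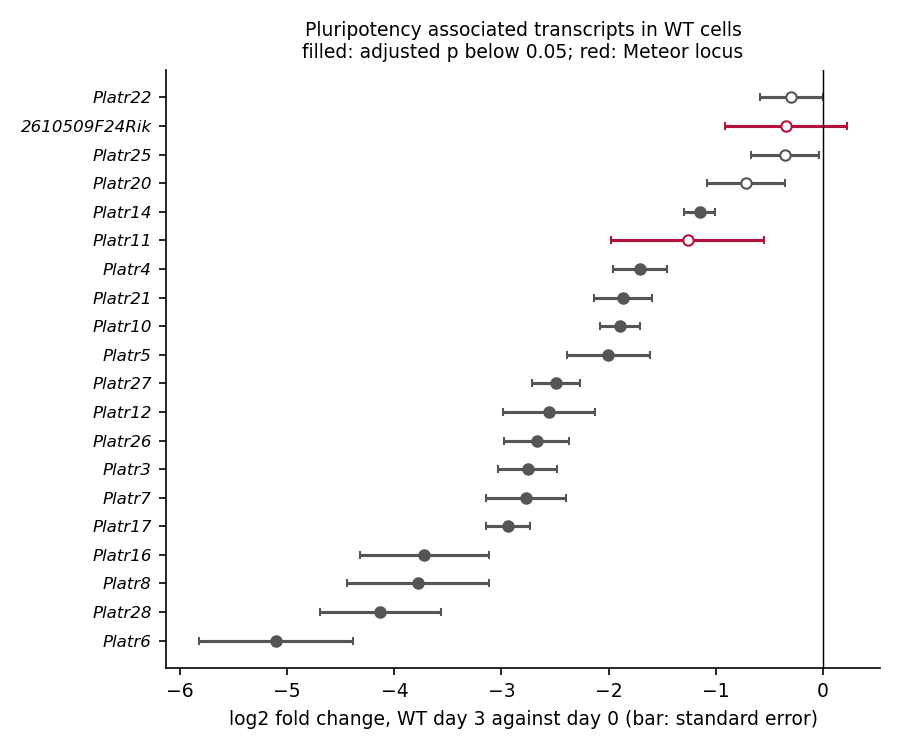
Log2 fold change from day 0 to day 3 in WT cells (horizontal axis, bars for the standard error) of the 18 tested *Platr* genes in grey and of the locus transcripts in red. Filled points passed an adjusted p of 0.05, which holds for 15 grey points and neither red point.

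Factors that mark pluripotency fell in both genotypes. Of 11 such genes, 10 fell in WT cells by day 3 and all 11 in KO cells, with medians of -3.82 and -3.29 on the log2 scale and a background of 25.5% and 27.2% of tested genes lower. The exception in WT cells was *Nanog* (-0.38, adjusted p = 0.26). Between genotypes at day 3, *Sox2* (151 to 193 CPM in KO, 61.2 to 74.2 CPM in WT, log2 1.34), *Zfp42* (0.76), *Esrrb* (0.68) and *Nr0b1* (2.25) were higher in KO cells, and *Tfcp2l1* (-0.70) and *Dppa3* (-1.51) were lower. These are 4 higher and 2 lower of 11, beside 14.3% and 16.7% of all tested genes, so the count of lower genes is near the background.

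The ligands, receptors and effectors that act on *Eomes* were described as a list of 16 genes of the Nodal and Wnt pathways. At day 3, 5 were lower and 3 higher in KO cells, beside 16.7% and 14.3% of tested genes, and the median log2 difference was -0.24. *Nodal* itself was at 64.8, 47.9 and 31.6 CPM in WT and 51.2, 28.0 and 32.4 CPM in KO samples, which overlapped (log2 -0.37, adjusted p = 0.19). Its coreceptor *Tdgf1* was lower in all KO samples (210 to 375 CPM) than in 2 of the WT samples (872 and 817 CPM), while WT replicate 3 had 318 CPM (log2 -1.21, SE 0.28, adjusted p = 0.0091). The activin receptor *Acvr2a* was lower by -0.58 (adjusted p = 0.016). The Nodal effectors *Smad2*, *Smad3*, *Smad4* and *Foxh1* passed in neither KO comparison.

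Among the Wnt pathway genes of that list, the ligand *Wnt3* had 65.7, 73.1 and 48.4 CPM in WT and 2.85, 1.37 and 2.91 CPM in KO samples at day 3 (log2 -4.80, SE 0.54, adjusted p = 2.6e-04), and already at day 0 the WT samples (1.91, 3.29 and 11.4 CPM) were above the KO samples (0.36 to 0.50 CPM, adjusted p = 0.0054). *Wnt3a* had 4.43, 3.61 and 0.76 CPM in WT samples at day 3, and in KO samples a single read was counted in replicate 2 and none in the others (adjusted p = 0.0010). *Lef1*, a nuclear effector of Wnt signals, was lower in KO cells at day 0 (2.81 to 14.5 against 40.5 to 94.9 CPM, log2 -2.90) and at day 3 (20.2 to 39.8 against 84.7 to 94.3 CPM, log2 -1.60). *Tcf7l1*, a repressor of Wnt targets, was higher at day 3 (141 to 172 against 55.0 to 77.2 CPM, log2 1.27, SE 0.13, adjusted p = 1.4e-04), and *Ctnnb1* (0.27) and the convertase gene *Pcsk6* (0.61) were higher too. The count of 5 lower genes fell to 3 without KO replicate 1 or KO replicate 3 of day 3.

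Genes of mesendoderm, where *Eomes* acts, were lower in KO cells at day 3 across the whole list. The list was chosen with earlier results of these data known, so its counts are a description and not an independent test. All 12 listed genes rose in WT cells by day 3 (median log2 change 4.94, with 30.7% of tested genes higher) and all 12 were lower in KO than in WT cells at day 3 (median log2 difference -5.47, with 16.7% lower). The count in the KO comparison stayed at 12 with each sample left out in turn, and that in WT cells was 11 or 12. *Lhx1*, a transcription factor gene of the streak, had 304, 200 and 225 CPM in WT and 1.70, 1.99 and 2.37 CPM in KO samples. *Foxa2*, a definitive endoderm factor, had 88.8, 59.1 and 55.6 CPM in WT and 1.40, 1.19 and 2.17 CPM in KO samples (log2 -5.44, SE 0.37). *Mesp1*, a factor of early mesoderm, had 20.99, 28.1 and 28.5 CPM in WT and at most 0.11 CPM in KO samples. The smallest difference was that of *Hhex* (10.3 to 23.6 CPM in WT, 2.90 to 3.47 CPM in KO, log2 -2.30).

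Over time in KO cells 4 of the 12 rose (*Lhx1*, *Foxa2*, *Cer1* and *Fgf8*) and 3 fell (*Mesp2*, *Evx1* and *Snai1*), beside 29.4% and 27.2% of all tested genes. Their summed level was 14.3 to 23.9 CPM at day 3, beside 54.7 to 144 CPM of *Eomes* in the same samples, and 618 to 961 CPM in WT samples. Leaving out KO replicate 1 of day 0 brought the count that rose in KO cells to 1, and leaving out KO replicate 3 of day 0 brought it to 2. At day 0 the summed level was 16.3, 19.8 and 64.2 CPM in WT and 13.1 to 17.4 CPM in KO samples, so WT replicate 3 stood apart there, without standing apart in *Eomes* (59.1 CPM). *Lhx1* and *Fgf8* were the 2 of 12 called lower in KO cells at day 0, beside 10.9% of all tested genes. In WT replicate 3 they had 13.9 and 18.6 CPM, against 0.655 and 0.835 CPM of *Lhx1* and 1.97 and 3.81 CPM of *Fgf8* in the other WT samples. The count was 1 without WT replicate 3 or KO replicate 1 of day 0 and 0 without KO replicate 2 or 3 of that day.

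**Figure D5:**
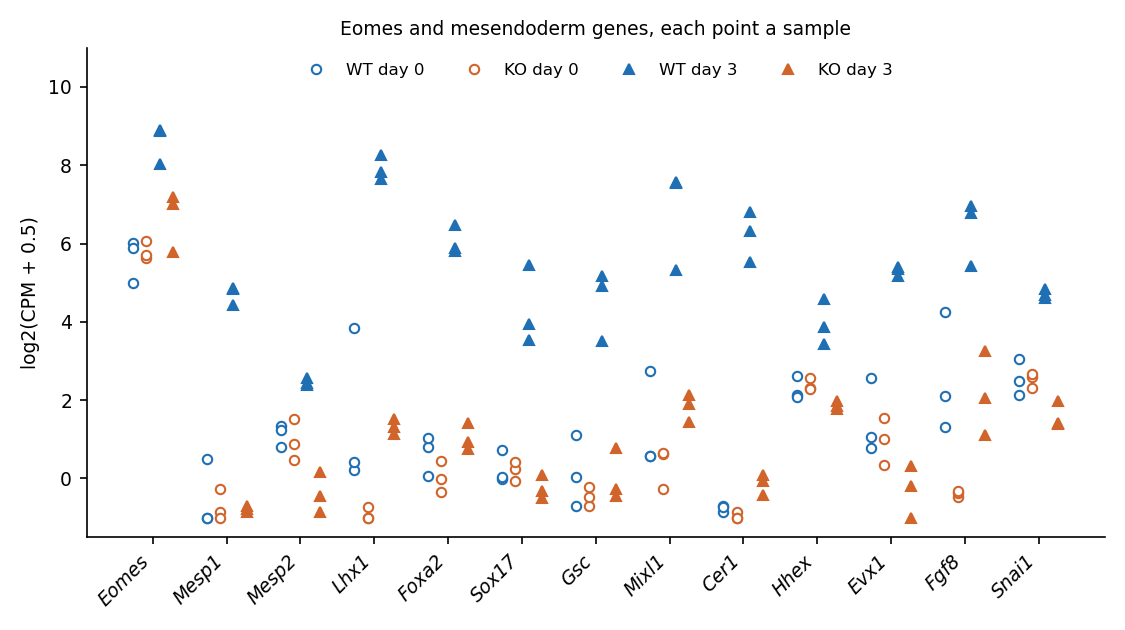
Level of *Eomes* and 12 mesendoderm genes as log2(CPM + 0.5) (vertical axis) in each sample, WT in blue and KO in orange, day 0 as open circles and day 3 as filled triangles. At day 3 the WT samples lie above the KO samples for all 13 genes shown.

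Among the other T-box genes 12 of 16 were tested, and 4 were lower in KO cells at day 3, beside 16.7% of all tested genes. *T* (Brachyury), a streak factor, had 693, 613 and 270 CPM in WT and 13.5, 1.31 and 4.12 CPM in KO samples (log2 -6.71, SE 1.13, adjusted p = 0.0020). At day 0 *T* had 4.64, 6.42 and 77.4 CPM in WT and 0.34 to 0.92 CPM in KO samples (adjusted p = 0.023), the only T-box gene called there, beside 10.9% of tested genes lower, in a count that ranged from 0 to 3 when 1 sample was left out. *Tbx6*, a factor of paraxial mesoderm, was lower at day 3 (5.64 to 9.15 against 0.75 to 1.02 CPM, log2 -2.99). *Tbr1*, the closest relative of *Eomes*, was at or below 1.01 CPM in every sample and was called lower on these few reads (log2 -1.62, adjusted p = 0.045). *Tbx20* was called lower too (log2 -3.08) and was carried by WT replicate 3 (56.9 CPM, against 1.40 and 2.94 CPM in the other WT samples). *Mga*, at 294 to 579 CPM in all groups, passed in neither KO comparison.

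*Eomes* is also expressed in visceral endoderm, trophoblast and neuronal progenitors, so markers of these were set beside it. Summed CPM of 10 visceral endoderm markers at day 3 was 70.6, 75.9 and 320 in WT and 46.3 to 118 in KO samples. The high WT sample was replicate 3, which had the lowest WT level of *Eomes* (261 CPM). There *Gata4*, *Dab2* and *Gata6* had 101, 83.2 and 63.4 CPM, and the study uses *Gata4* as a cardiac mesoderm marker. *Ttr*, *Hnf4a* and *Apoa1* were also highest in that sample, at 11.3, 11.7 and 8.77 CPM. Of the 10 genes *Gata4* and *Gata6* were called lower in KO cells at day 3 and none higher, beside 16.7% and 14.3% of all tested genes. The trophoblast list of 6 genes summed to 11.9 to 24.9 CPM in WT and 3.80 to 9.49 CPM in KO samples at day 3. That sum came from *Cdx2*, *Tfap2c* and *Ascl2*, since *Tpbpa* and *Prl3d1* had no reads in any sample and *Elf5* was at most 0.055 CPM. The list sum therefore does not show that trophoblast cells were present. The neuronal progenitor list of 5 genes summed to 21.7 to 30.7 CPM in WT and 7.44 to 11.99 CPM in KO samples at day 0. Of its 4 tested genes *Pax6* and *Neurod1* were called lower in KO cells, beside 10.9% of all tested genes. At day 3 it summed to 1.59 to 5.29 CPM in WT and 8.76 to 10.9 CPM in KO samples, so the order of the genotypes turned for the sum. *Pax6*, *Neurod1* and *Insm1* were then called higher and *Tbr1* lower, beside 14.3% and 16.7% of all tested genes. The part of these cell types in the *Eomes* values was not tested.

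The genes whose profile over the 12 samples was most like that of *Eomes* were *Rnf152*, *BC034090*, *Cdh20*, *Fstl4* and *Slc4a4*, with root mean square distances of 0.46 to 0.49 on the log2(CPM + 0.5) scale after centring each gene. *Slc4a4*, which encodes a sodium bicarbonate cotransporter, had mean levels of 4.32 CPM in WT and 2.78 CPM in KO ESCs, and of 24.8 and 5.94 CPM at day 3. *Nxf3*, *Zc3hav1*, *Vgf*, *Rrad* and *Gbp3* were most like *2610509F24Rik* (distances 0.58 to 0.79), and *Vgf*, *Gad1*, *Ddx60*, *Rrad* and *Gm45837* were most like *Platr11* (0.55 to 0.69). *Vgf* and *Rrad* are in both lists. None of these genes is a tested neighbour of the locus. With a pseudocount of 1 in place of 0.5, 3 of 5 genes stayed the same for *Eomes*, 2 for *2610509F24Rik* and 4 for *Platr11*.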

How the data were processed

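The authors aligned reads from polyadenylated RNA to GRCm38 with STAR 2.4.2a after trimming with cutadapt 1.3 and counted them per Ensembl gene with HTSeq 0.6.1. The deposited values are whole-number counts per gene, not normalized by the authors. The strand setting of the counting is not given in the sources used here, so reads of a gene and an antisense partner may be mixed. Rows that name no gene (no feature, ambiguous or aligned to several places) held 46.3% to 51.0% of the sum of all rows and were left out. That share equals a share of reads only if each read enters the rows once. Replicates of a group differed beyond sampling noise in all pairs (chi-square per gene 10.6 to 50.8). Nothing says that replicates came from separate cultures, so p-values measure the spread between these samples, which may be technical.

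Genes above 1 CPM in at least 1 sample were fitted with edgeR 4.0.16 (R 4.3.3), using TMM factors, 4 groups, all 12 samples, the replicate number as a block (the study's methods add a batch factor) and the quasi-likelihood test. Adjusted p-values are Benjamini-Hochberg values over 15673 genes, with a threshold of 0.05 and no fold minimum. Standard errors were derived from the log2 fold change and the F statistic. Same-numbered WT and KO samples deviated together within a day (correlation 0.32 to 0.70 over 12129 genes, 6 pairs) and not between days (-0.23 to 0.07), so the numbers pair samples within a day. Alternatives were the fit without the block, a block within each day, the 6 samples of a comparison, limma-voom 3.58.1, DESeq2 1.42.0, RLE factors, no filter, a mean of at least 10 counts and each sample left out. The genes and gene lists were chosen with earlier results of these data known, and leaving out samples for the lists was added after seeing the data. The genes named are the locus transcripts and *Eomes*, members of the lists, the 5 genes most like each in profile, and *Upf3b*. Scripts were tested on simulated data. Transcript sequences are from GENCODE M21 and the promoter from RefSeq.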

Additional observations from a re-analysis of the deposited data

Results flagged for a closer look

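The KO effect on *Eomes* differed between the days by an interaction term: the log2 difference of KO to WT was 0.12 at day 0 and -1.87 at day 3, and the change between them was -1.99 (SE 0.56, edgeR adjusted p = 0.037, range 0.0043 to 0.078 over the alternatives). All 3 KO samples were below all WT samples at day 3, and 2 of 3 KO samples were above their same-numbered WT sample at day 0.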

How the results depend on the processing

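The differences of both locus transcripts between KO and WT at each day, and the *Eomes* comparisons of KO with WT at day 3 and of WT day 3 with day 0, kept direction and call in every alternative run. Both KO groups were at or under the floor of 3 reads for *2610509F24Rik* and *Platr11*, so a change over time in KO cells and a difference between the days have no value for them. Depth limits the locus results, since 11 to 112 reads stand behind each WT value, and so does the spread between replicates.

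The fit without the replicate block changed 1 call on the 3 genes: *Eomes* in KO cells over time, at 0.97 (adjusted p = 0.036). It also passed with the 6 samples compared (0.88) and with no filter (0.97), and ranged from 0.65 to 1.44 when a sample was left out. With the replicate block within each day, 5447 genes differed between KO and WT at day 0 (main 3201), 7347 at day 3 (main 4846) and 4889 between the days (main 2436), and no call on *Eomes* or the locus transcripts changed. With only the 6 samples of day 0, 5356 genes differed. Replicate numbers paired samples within a day and not between days, while the block of the main fit spans both days. The shares of all tested genes given beside the genes and lists come from that main fit. The causes of the differing counts were not tested.

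With 1 sample left out, the ranges were as follows. The KO to WT log2 difference of *2610509F24Rik* ran from -9.76 to -8.50 at day 0 and from -9.67 to -8.44 at day 3, and its WT change over time from -0.84 to 0.45, turning sign to 0.44 and 0.45. That of *Platr11* ran from -7.40 to -5.45 and from -8.81 to -7.02, and its WT change from -2.25 to -0.22. For *Eomes*, the KO difference ran from -0.22 to 0.35 at day 0, turning sign to -0.22 and -0.05, from -2.23 to -1.42 at day 3, and by -2.37 to -1.54 between the days, while the WT change ran from 2.60 to 3.24. Called genes numbered 1717 to 3480 at day 0, 2907 to 5079 at day 3, 7257 to 8684 for WT over time, 7499 to 9056 for KO over time and 1391 to 2397 for the difference. The fits at the low and at the high ends alike had 1 sample fewer than the main fit.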
